A study of Mus musculus with 10 samples.

Results

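Lysosomal enzymes and membrane proteins were followed as a group of 29 genes in RNA sequencing of mouse embryonic stem cell (ESC) lines. The members are named genes, and the list was chosen with earlier results of these data known. All 29 are among the 20206 genes of the table, each with 1 row, and all 29 passed the filter on low values, so 29 of the 14354 genes tested are members. They are 9 soluble proteases, 7 glycosidases, 7 lipid hydrolases and lipid carriers (Grn counted with them), 5 membrane proteins and the transcription factor Tfeb.

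The 10 ESC lines came from blastocysts of wild-type C57BL/6 mice. The mothers, aged 7 to 9 weeks and mated with males of the same strain, ate either a low protein diet (LPD, 9% casein, lines 1, 4, 6, 20 and 40) or a normal protein diet of equal energy (NPD, 18% casein, lines 8, 15, 21, 36 and 51) from plug until embryonic day 3.5. After that the diets ended, and both groups of lines grew in the same medium, first on mouse embryonic fibroblasts and, for the RNA, without them. Each line descends from a single embryo, is labelled male and, by the study's methods, has a mother of its own. The comparison asks whether the mother's diet before implantation left a difference in the transcripts of these lines.

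Lysosomes are acidic organelles in which hydrolases cleave proteins, glycans and lipids that arrive by endocytosis and autophagy. The soluble enzymes are tagged with mannose 6-phosphate in the Golgi and delivered by receptors, while heavily glycosylated proteins such as Lamp1 line the limiting membrane and channels and carriers let calcium, sterols and breakdown products out. Many of the genes share a short promoter element, an E-box in a wider palindrome, that is bound by Tfeb and its relatives Tfe3 and Mitf. In mouse ESCs, Tfe3 in the nucleus is known as a driver of self-renewal that is withdrawn when cells leave the naive state.

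The value per gene and line is an estimated count normalized by the authors, and depth was expressed in read equivalents, obtained by dividing the sum of a line by the worth of 1 read. The NPD lines held 20420517 to 23167911 read equivalents, and the LPD lines 5842599 (line 4) to 24080130, with 12348168 in line 6 and 11248926 in line 40. In LPD line 4, 1 read was worth 2.88 units, so low members are least precise there. All 8 ESC markers were high in every line, summing to 96749 to 126817 in LPD and 90940 to 125437 in NPD. Fibroblast markers (10 of 10 listed) summed to 353 to 3753 in LPD and 434 to 6150.0 in NPD, highest in NPD line 15. Macrophage markers (3 of 6 listed) summed to 11.1 to 36.3, with Ptprc below 10 in every line. Of the 6 trophoblast markers, summing to 1972 to 4422 and mostly Tfap2c, Elf5 was below 10 in every line. The Y-linked gene Ddx3y stood at 174 in LPD line 4 and 7.70 in NPD line 15 against 1110 to 1493 in the other lines, and the median of 334 X-linked genes lay 0.49 above the median line in NPD line 15. In every other line that median lay between -0.06 and 0.03. Both lines are labelled male, and the Ddx3y and X-linked values of NPD line 15 go against that label. Both were kept. No member lies on the X or Y chromosome.

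The lysosomal genes were well expressed in these cells. Per kilobase (kb) of the principal transcript (GENCODE M21 on GRCm38, the build of all positions here) their median level was 455, at the 78.1st percentile of the genes tested, whose median was 127. The highest was Cd63, a tetraspanin of late endosomes and lysosomes (chromosome 10, 128900989 to 128912822), at 5390.4 per kb. Psap, the precursor of the saposins that present lipids to hydrolases, stood at 3286, and the cysteine protease gene Ctsl at 3246. Lamp1 followed at 2993 and the aspartic protease gene Ctsd at 2737, and the ranges over lines of neighbours in this order overlapped. At the low end were Naglu, which removes N-acetylglucosamine from heparan sulfate (30.3 per kb), Idua, which removes iduronic acid from the same class of glycans (51.9), and the acid lipase gene Lipa (61.9). Naglu and Idua, both enzymes of glycosaminoglycan breakdown, overlapped in their ranges, and all 10 lines of each were below the lowest line of Cd63.

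**Figure D1:**
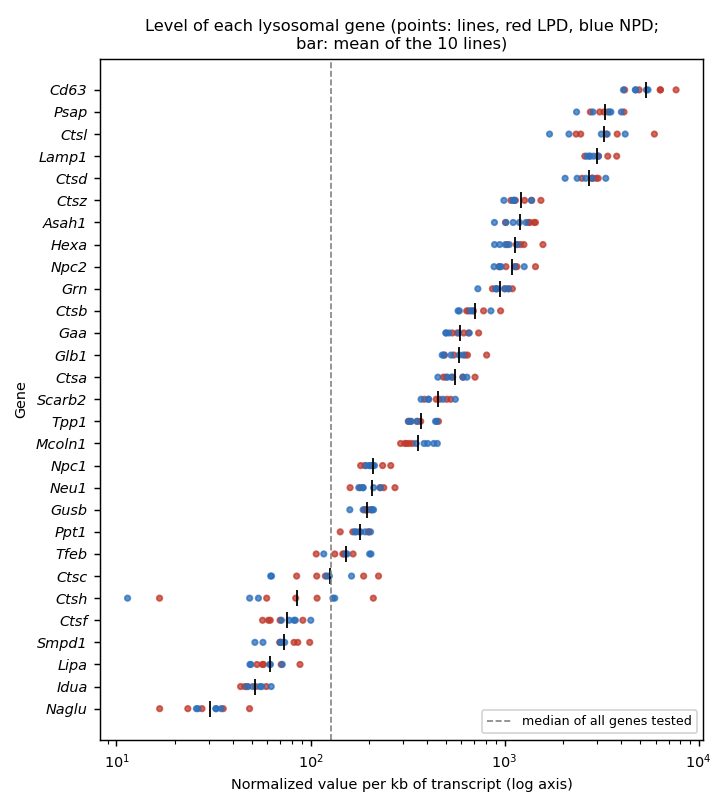
Normalized value per kb of transcript on a log axis for the 29 lysosomal genes, ordered by their mean over the 10 lines (black bar), with 1 point a line, red for LPD and blue for NPD. Most genes form tight rows right of the median of all genes tested (dashed, 127), while Ctsh spreads over an 18.5-fold range.

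Between the diets, differences were small. Of the 29 genes, 22 had a higher mean log2 value in LPD and 7 a lower one, where 50.5% of all genes tested were higher. The median log2 fold change, LPD against NPD on log2(value + 1), was 0.12 with a range from -0.36 to 0.45, beside a median of 0.00 over all genes tested. By class, 7 of 9 proteases, 5 of 7 glycosidases, 6 of 7 lipid genes and 4 of 5 membrane genes were higher. At an unadjusted p under 0.05 in limma, 1 member was higher in LPD (Hexa) and 1 lower (Mcoln1), where the percentages of all genes tested were 2.84% higher and 2.18% lower. With Benjamini-Hochberg adjustment over all 14354 genes, limma called 0 of the 29 at an adjusted p under 0.1, against 2 at an unadjusted p under 0.05, and 0% of all genes passed. In Mcoln1 every LPD line lay below every NPD line, as in 0.495% of the genes tested. Permutation p values given for single genes are two-sided, over all ways to assign 5 and 5 lines. No member had every LPD line above every NPD line, which 0.523% of the genes tested had. The members share their libraries and partly their regulators, so the counts of directions are not counts of independent events, and they were not tested as a list.

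**Figure D2:**
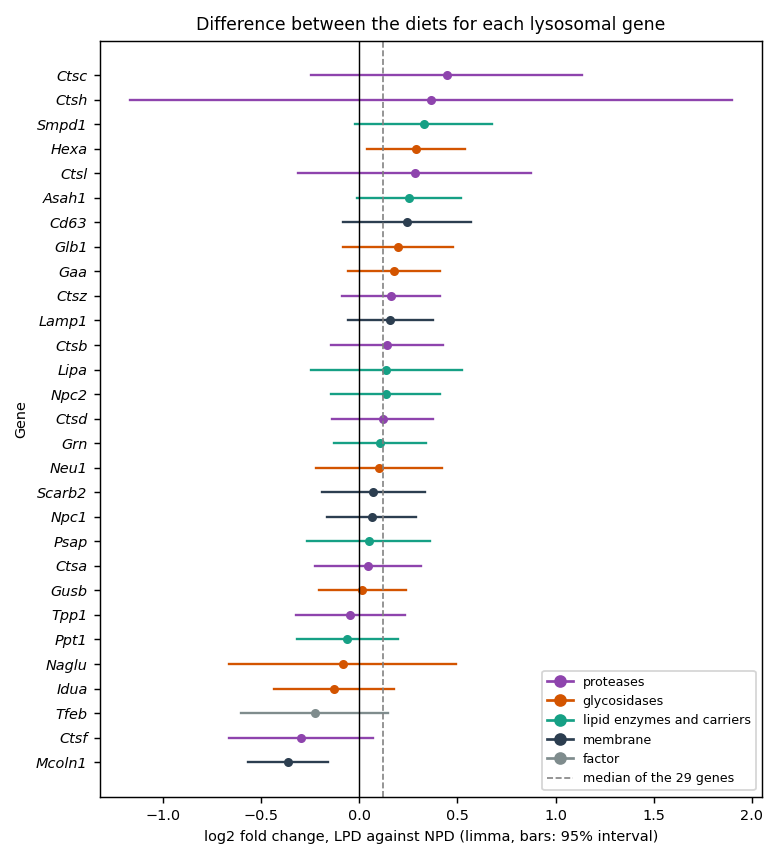
Log2 fold change of each of the 29 lysosomal genes, LPD against NPD (points), with the 95% interval from limma (bars), coloured by class; the dashed line is their median. The points run from -0.36 for Mcoln1 to 0.45 for Ctsc, and the intervals of Mcoln1 and Hexa are the 2 that leave out 0.

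Mcoln1 (chromosome 8, 3500457 to 3515232) encodes the mucolipin channel that releases calcium from lysosomes and is a known target of Tfeb. Its values were 633, 666, 692, 646 and 602 in LPD lines 1, 4, 6, 20 and 40. In NPD lines 8, 15, 21, 36 and 51 they were 723, 930.0, 829, 891 and 795. The groups did not overlap, the highest LPD line being line 6 at 692 and the lowest NPD line being line 8 at 723. The means were 647 ± 34.1 for LPD against 834 ± 81.1 for NPD (SD, n = 5 lines each), a log2 fold change of -0.36 (standard error, SE 0.09, limma p = 0.00208, adjusted p = 0.539, exact permutation p = 0.00794, the smallest p that 5 lines against 5 allow). Among the 29 genes this was also the smallest SD within a diet, 0.114 on the log2 scale beside a median of 0.218. Leaving out single lines, the fold change lay between -0.41 and -0.32, and its unadjusted p was under 0.05 in all 21 alternatives, while its adjusted p ranged from 0.384 to 1.00. None of its exons overlap another listed gene.

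The 250 bases before the RefSeq start of Mcoln1 (chr8:3500269-3500518, GRCm38.p6, plus strand, 61.6% G + C) are shown because they hold the Tfeb family element in duplicate, with the element GTCACGTG or its reverse complement CACGTGAC in capitals.
Mcoln1 promoter: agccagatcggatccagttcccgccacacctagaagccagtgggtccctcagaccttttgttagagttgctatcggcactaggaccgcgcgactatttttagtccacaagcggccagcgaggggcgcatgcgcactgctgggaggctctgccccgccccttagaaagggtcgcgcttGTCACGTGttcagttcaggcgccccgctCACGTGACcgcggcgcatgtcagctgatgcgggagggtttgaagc
The first core, CACGTG, begins 71 bases before the start and the second 45 before it.

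The other 4 membrane proteins had higher means in LPD, by smaller amounts. Lamp1 (chromosome 8, 13159161 to 13175338), the defining glycoprotein of the limiting membrane, had values of 6795, 5777, 6713, 7591 and 8438 in LPD lines 1, 4, 6, 20 and 40 and 6153, 6104, 6795, 5927 and 6413 in NPD lines 8, 15, 21, 36 and 51. LPD lines 20 and 40 were above every NPD line and LPD line 4 was below them all. Its means were 7063 ± 1002 for LPD against 6278 ± 337 for NPD (SD, n = 5 lines each), a log2 fold change of 0.16 (SE 0.10, limma p = 0.13, adjusted p = 0.994, exact permutation p = 0.167, 95% interval -0.05 to 0.37). Cd63 read 5249.6, 4421, 6762, 6744 and 8139 in the LPD lines in the order above and 5835, 5020.3, 5725, 4358 and 5047 in the NPD lines. LPD lines 6, 20 and 40 exceeded every NPD line, while LPD line 4 was close to the lowest NPD line. The fold change of Cd63 was 0.24 (SE 0.15, limma p = 0.127, adjusted p = 0.994, exact permutation p = 0.167). Npc1, which exports cholesterol through the membrane, and Scarb2, the receptor that carries glucocerebrosidase to lysosomes, had log2 fold changes of 0.06 and 0.07, with intervals of -0.16 to 0.29 and -0.19 to 0.34. Without LPD line 4, whose read depth was lowest and whose Ddx3y value was low, Lamp1 reached 0.23 and Cd63 0.36, each at an unadjusted p under 0.05. Without LPD line 40, the highest line of both genes, Lamp1 was at 0.09 and Cd63 at 0.14.

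**Figure D3:**
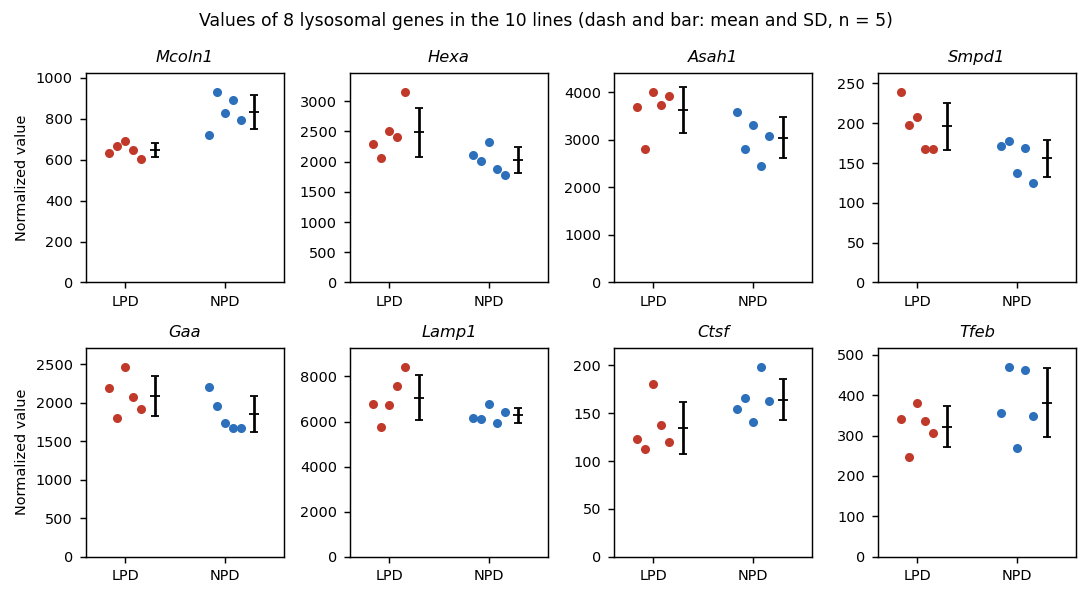
Normalized values of 8 lysosomal genes in each line (red points LPD, blue points NPD, lines ordered by number within a diet), with the mean and SD of the 5 lines of a diet in black. Mcoln1 is the panel in which the diets do not overlap, and LPD line 4 is the lowest LPD point of Asah1 at 2805.

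In the class of lipid hydrolases and lipid carriers, with which Grn was grouped, all but Ppt1 were higher in LPD, none past an unadjusted p of 0.05. Smpd1, acid sphingomyelinase, turns sphingomyelin into ceramide, and Asah1, acid ceramidase, cleaves that ceramide in the next step. Smpd1 (chromosome 7, 105554360 to 105558389) had values of 239, 198, 207, 168 and 168 in LPD lines 1, 4, 6, 20 and 40 and 172, 178, 137, 169 and 125 in NPD lines 8, 15, 21, 36 and 51. LPD lines 1, 4 and 6 were above every NPD line and lines 20 and 40 lay within the NPD range. This gave a log2 fold change of 0.33 (SE 0.16, limma p = 0.0614, adjusted p = 0.994, exact permutation p = 0.0794), with an unadjusted p under 0.05 in 6 of the 21 alternatives. Asah1 (chromosome 8, 41340197 to 41374773) read 3685, 2805, 4002, 3738 and 3931 in LPD lines 1, 4, 6, 20 and 40 and 3576, 2819, 3308, 2459.5 and 3072 in NPD lines 8, 15, 21, 36 and 51. All LPD lines but line 4 were above every NPD line, and the means were 3632 ± 481 for LPD against 3047 ± 432 for NPD (SD, n = 5 lines each). Its log2 fold change was 0.25 (SE 0.12, limma p = 0.0569, adjusted p = 0.994, exact permutation p = 0.0873), and 0.34 without LPD line 4, with an unadjusted p under 0.05 in 4 of the 21 alternatives. Psap read 8649.9, 8218, 10966, 7356 and 9042 in the LPD lines and 9387, 10629, 9215, 6246 and 7591 in the NPD lines, a wide overlap with a fold change of 0.05 (SE 0.14, exact permutation p = 0.778). Lipa, which cleaves cholesteryl esters and triglycerides, read 262, 209.7, 157, 170.0 and 168 in the LPD lines and 212, 184, 145, 183 and 146 in the NPD lines, with a fold change of 0.14. LPD line 1 was highest and the remaining lines of both diets mixed. Npc2, the soluble partner that hands cholesterol to Npc1, had a fold change of 0.14, Grn, progranulin, 0.11, and Ppt1, which removes palmitate from proteins, -0.06, with 95% intervals that all include 0.

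Of the glycosidases, Hexa alone passed an unadjusted p of 0.05. It encodes the alpha subunit of beta-hexosaminidase, which trims gangliosides, and lies on chromosome 9, 59539540 to 59565109. Values were 2295, 2055, 2513, 2413 and 3149 in LPD lines 1, 4, 6, 20 and 40 and 2111, 2014, 2328, 1885 and 1773 in NPD lines 8, 15, 21, 36 and 51. LPD lines 6, 20 and 40 were above every NPD line, with line 40 highest, and lines 1 and 4 fell within the NPD range. The means were 2485 ± 408 for LPD against 2022 ± 214 for NPD (SD, n = 5 lines each), a log2 fold change of 0.29 (SE 0.12, limma p = 0.0266, adjusted p = 0.952, exact permutation p = 0.0397). The fold change was 0.20 without LPD line 40, and the call was lost without that line, without NPD line 36 and without NPD line 51. By annotation 12.8% of the exonic bases of Hexa overlap Tmem202, so reads there could belong to either gene. The 250 bases before its start (chr9:59539290-59539539, GRCm38.p6, plus strand, 51.6% G + C) are shown beside the Mcoln1 promoter because they hold no CACGTG.
Hexa promoter: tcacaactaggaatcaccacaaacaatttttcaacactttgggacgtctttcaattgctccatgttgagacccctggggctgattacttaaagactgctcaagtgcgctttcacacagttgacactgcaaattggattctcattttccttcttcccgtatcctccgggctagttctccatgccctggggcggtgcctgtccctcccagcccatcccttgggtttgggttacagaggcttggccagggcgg

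Gaa, acid alpha-glucosidase, breaks down glycogen in lysosomes and is a gene the study itself picked from these lines, so its direction here is not independent evidence. The study reported Gaa as increased in LPD in RNA sequencing, tested by transcript and not by gene, and its qRT-PCR did not bear this out. The values of Gaa (chromosome 11, 119267887 to 119285454) were 2194, 1809, 2473, 2074 and 1918 in LPD lines 1, 4, 6, 20 and 40 and 2213, 1955, 1741, 1678 and 1679 in NPD lines 8, 15, 21, 36 and 51. LPD line 6 stood above every NPD line and the other LPD lines within their range. With means of 2094 ± 258 for LPD against 1853 ± 231 for NPD (SD, n = 5 lines each), the log2 fold change was 0.18 (SE 0.11, limma p = 0.127, adjusted p = 0.994, exact permutation p = 0.151, 95% interval -0.06 to 0.41). It kept its sign in all 21 alternatives and passed an unadjusted p of 0.05 in 1 of them, without NPD line 8, and was 0.11 without LPD line 6. Glb1, beta-galactosidase, had a fold change of 0.20 (SE 0.13, exact permutation p = 0.198) with LPD lines 1, 4 and 40 above every NPD line, and 0.10 without LPD line 1. Neu1, the sialidase held in 1 complex with Glb1 and Ctsa, had 0.10 (0.01 without LPD line 40), and Gusb, beta-glucuronidase, 0.02. Idua read 168, 184, 209, 154 and 162 in LPD and 222, 198, 178, 194 and 166 in NPD, overlapping widely, with a fold change of -0.13 (SE 0.14, exact permutation p = 0.262) that was -0.07 without NPD line 8. Naglu, the lowest member, read 90.9, 42.7, 124, 59.7 and 70.6 in LPD and 83.6, 83.2, 67.3, 88.7 and 66.1 in NPD. The lowest and the highest Naglu value were both in LPD, in line 4 and line 6, and the fold change of -0.08 turned positive without LPD line 4 (0.10).

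Proteases held the members that differed most from line to line, with both diets spread over the range. Ctsh, an aminopeptidase (chromosome 9, 90054152 to 90076089), had values of 341, 175, 27.0, 96.1 and 136 in LPD lines 1, 4, 6, 20 and 40 and 78.5, 18.4, 211, 216 and 87.1 in NPD lines 8, 15, 21, 36 and 51. That is an 18.5-fold range with an SD of 1.38 within a diet on the log2 scale, and a fold change of 0.37 whose 95% interval ran from -1.16 to 1.90 (exact permutation p = 0.659). That fold change lay between -0.19 and 0.88 with single lines left out, turning negative without LPD line 1 or NPD line 15, and was -0.34 without LPD line 4 and NPD line 15 together. Ctsc, the dipeptidyl peptidase that activates granule proteases in immune cells, read 559, 268, 211, 297 and 468 in the LPD lines and 157, 155, 312, 406 and 303 in the NPD lines. Its SD was 0.604 and its fold change of 0.45 (SE 0.32, limma p = 0.186, adjusted p = 0.994, exact permutation p = 0.302), the highest of the 29 with all lines included, was within that spread. Without LPD line 1 it was 0.27, below Hexa at 0.31 and Cd63 at 0.30, and it was 0.28 without NPD line 8 or 15. Ctsl, a broad cysteine endopeptidase, read 7507, 4867, 4608, 6591 and 11667 in LPD lines 1, 4, 6, 20 and 40 and 4233, 3362, 6668, 8250.3 and 6217 in NPD lines 8, 15, 21, 36 and 51. LPD line 40 was highest and NPD line 15 lowest, with an SD of 0.532 and a fold change of 0.28 (SE 0.27, limma p = 0.323, adjusted p = 0.994, exact permutation p = 0.421), which was 0.08 without LPD line 40 and 0.11 without NPD line 15. Naglu, the fourth by spread, had an SD of 0.430.

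The 3 cathepsins varied together over the 10 lines, with 6 pairs compared among the 4 most variable members. Log2 values of Ctsc and Ctsl gave Pearson's r = 0.90 (permutation p = 0.00043, adjusted 0.00258) and Spearman's rho = 0.95 (permutation p = 0.00013, adjusted 0.00078), and r = 0.82 without NPD lines 8 and 15, the 2 lines farthest from the median of Ctsc. Ctsh and Ctsc gave r = 0.79 (permutation p = 0.0069, adjusted 0.0207) and rho = 0.84 (permutation p = 0.0037, adjusted 0.0111), and r = 0.71 without LPD line 6 and NPD line 15, the farthest in Ctsh. Ctsh and Ctsl gave r = 0.69 (permutation p = 0.0277, adjusted 0.0554) and rho = 0.79 (permutation p = 0.00859, adjusted 0.0172). This last relation rests on LPD line 6 and NPD line 15, without which r was 0.36. The 3 pairs with Naglu had r between -0.37 and -0.10 and rho between -0.03 and 0.08, with permutation p from 0.295 to 1.00 and adjusted p from 0.442 to 1.00.

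Markers of primitive and visceral endoderm, the lineage that arises beside the pluripotent cells of the blastocyst, moved with these cathepsins. All 10 of the 10 markers were listed, with Foxa2 at 0 in NPD line 15, and their summed value was 14609, 8774, 1834, 6005 and 11366 in LPD lines 1, 4, 6, 20 and 40. In NPD lines 8, 15, 21, 36 and 51 it was 3202, 1042, 8130.1, 11857 and 7705. NPD line 15, LPD line 6 and NPD line 8 were the 3 lowest lines in the marker sum and also in Ctsh, Ctsc and Ctsl. LPD lines 1 and 40 and NPD line 36 were the 3 highest in the marker sum, in Ctsc and in Ctsl. This order was not particular to the members. Lgmn, from the list of further hydrolases, had the same 3 lowest lines (978 to 1256) and the same 3 highest (2468 to 2965). The same 3 low lines had the 3 highest sums of fibroblast markers, 3753 in LPD line 6 and 2302 and 6150.0 in NPD lines 8 and 15. In bulk RNA, fewer cells of a type and less RNA per cell cannot be told apart, and the part of these markers in the cathepsin values was not tested.

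**Figure D4:**
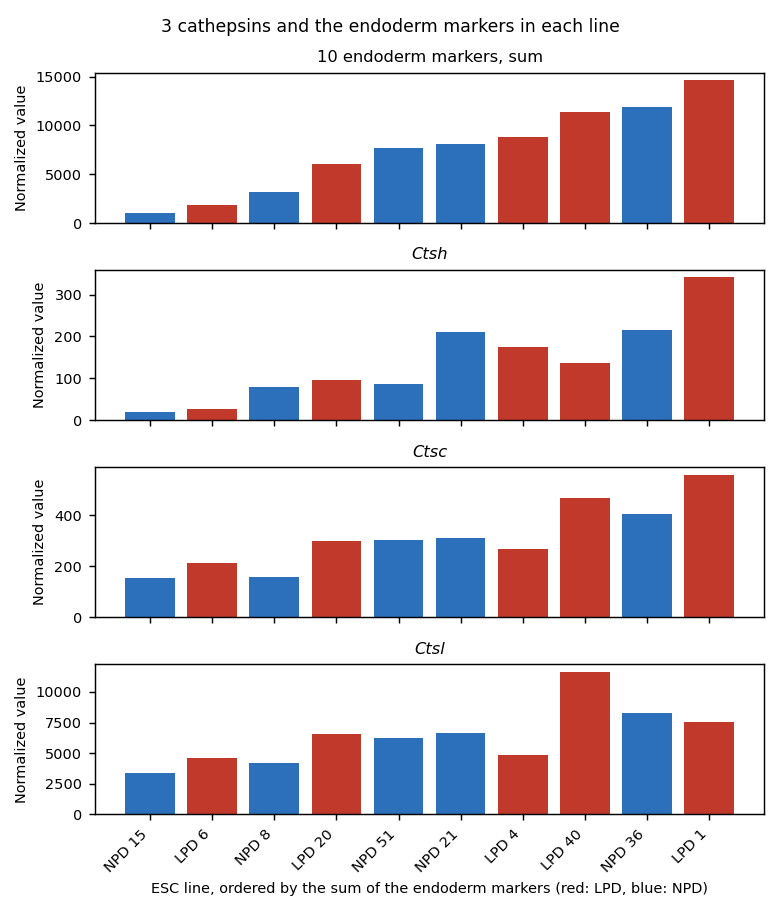
Bars of the normalized value in each of the 10 lines, for the sum of 10 endoderm markers (top) and for Ctsh, Ctsc and Ctsl, with the lines ordered by the marker sum and coloured red for LPD and blue for NPD. The 3 lines at the left, with marker sums of 1042 to 3202, are also lowest in each cathepsin, and both colours are found at both ends.

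The other proteases were steadier. Ctsf (chromosome 19, 4855130 to 4860918), a cysteine protease, had values of 123, 112, 181, 138 and 120.2 in LPD lines 1, 4, 6, 20 and 40 and 154, 165, 140.2, 199 and 163 in NPD lines 8, 15, 21, 36 and 51. Every LPD line but line 6 was below every NPD line, and the fold change was -0.29 (SE 0.17, limma p = 0.104, adjusted p = 0.994, exact permutation p = 0.0794). Ctsz, a carboxypeptidase, had a fold change of 0.16, Ctsb 0.14, Ctsd 0.12, Ctsa 0.05 and the tripeptidyl peptidase Tpp1 -0.05. Their 95% intervals all included 0, and their limma p values ran from 0.186 to 0.727. Exons overlap those of other listed genes over 34.4% of the bases in Ctsd, 17.4% in Ctsa and 12.8% in Ctsb, so their values could hold reads of a neighbour.

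Tfeb itself (chromosome 17, 47737030 to 47792419) had a lower mean in LPD, within the spread of the lines. It read 341, 246, 380.5, 337 and 306 in LPD lines 1, 4, 6, 20 and 40 and 355, 471, 269, 463 and 348 in NPD lines 8, 15, 21, 36 and 51. NPD lines 15 and 36 were highest and LPD line 4 lowest, and the remaining lines overlapped, with a log2 fold change of -0.23 (SE 0.17, limma p = 0.212, adjusted p = 0.994, exact permutation p = 0.238). The difference was -0.13 without LPD line 4, -0.14 without NPD line 15 and -0.15 without NPD line 36, and -0.08 with the read depth of each line as a covariate. Its relative Mitf (chromosome 6, 97807052 to 98021349) read 97.1, 85.8, 67.3, 66.9 and 50.99 in LPD and 87.0, 128, 126, 109 and 75.5 in NPD. LPD lines 6, 20 and 40 were below every NPD line, and Mitf had a fold change of -0.51 (SE 0.23, limma p = 0.0432, adjusted p = 0.982, exact permutation p = 0.0476). Its limma p was under 0.05 in 11 of 20 alternatives, and without LPD line 40 the fold change was -0.39. Tfe3, on the X chromosome, had values of 906 to 1859.8 in LPD and 909 to 2086 in NPD, with a fold change of -0.06 (SE 0.24, exact permutation p = 0.802). NPD line 15, whose X-linked genes stood higher, held the highest Tfe3 value, and without it the fold change was 0.11. The activity of these factors is set largely by phosphorylation and entry into the nucleus, which transcript values do not measure.

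Promoters of the members were searched for the element of this family. RefSeq windows from 250 bases before to 50 after a start were held for 25 of the 29 genes, all but Npc1, Ctsb, Ctsh and Asah1. The core CACGTG, which reads the same on both strands, was found in 9 of the 25 (36%), against 8.09% of the 27025 genes with such a window and 11.6% of the 10759 tested genes with one. The extended element GTCACGTG, on either strand and always overlapping the core, was in 6 (24%), against 2.55% and 4.63%. A match is a description of letters and not a binding site. Many lysosomal genes are known to share this element, so the higher shares may follow from the choice of list. They are not a result of the expression values. Stretches of 30 bases around the core are printed for the members with the extended element, both sites of Mcoln1 and 1 site of each other gene, to show the letters they share. Capitals mark the element, and each reads 5′ to 3′ on the strand of its gene. The stretches are Mcoln1 at chr8:3500436-3500465, plus strand, and chr8:3500462-3500491, plus strand, Glb1 at chr9:114401018-114401047, plus strand, Naglu at chr11:101070009-101070038, plus strand, Ctsa at chr2:164833749-164833778, plus strand, Ctsd at chr7:142387908-142387937, minus strand, and Lamp1 at chr8:13159121-13159150, plus strand.
Mcoln1 upstream site: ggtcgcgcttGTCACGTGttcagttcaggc
Mcoln1 downstream site: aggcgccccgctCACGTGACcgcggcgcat
Glb1: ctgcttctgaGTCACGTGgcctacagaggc
Naglu: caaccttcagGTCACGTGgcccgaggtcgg
Ctsa: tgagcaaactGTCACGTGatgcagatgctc
Ctsd: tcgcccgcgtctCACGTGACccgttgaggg
Lamp1: gatgccgactggCACGTGACcacatcacgt

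Lamp1 holds 4 cores between 61 and 15 bases before its start, of which the site shown is the only extended one. Ctsa and Ctsd, like Mcoln1, hold 2 extended sites each. Ctsf, Ctsl and Gaa hold the core without the extension. Gaa is shown because the study named it, with its core 140 bases before the start (chr11:119267811-119267840, plus strand), and Ctsf because it lay with Mcoln1 among the genes lower in LPD (chr19:4855074-4855103, plus strand).
Gaa: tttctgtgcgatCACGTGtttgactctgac
Ctsf: caccccgtggtcCACGTGcctcgcgtaaat
Genes with the core were found on both sides of 0. Of the 9 members with the core, 6 were higher and 3 lower in LPD, with a median log2 fold change of 0.12 and a range from -0.36 to 0.28. Of the 16 with a window but no core, 12 were higher and 4 lower, with a median of 0.10. Of the 3 members with 2 extended sites, Mcoln1 was the lowest of the 29 fold changes, while Ctsa was at 0.05 and Ctsd at 0.12. Lamp1, with 4 cores, was at 0.16.

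Seen by line, LPD line 40 was the highest of the 10 in 10 of the 29 genes, and the median member there lay 0.19 above its median line on the log2 scale. LPD line 4 was lowest in 6 members and highest in 0, NPD line 36 lowest in 7 and NPD line 51 lowest in 5. The members together took 0.334% to 0.441% of the total in LPD lines and 0.331% to 0.371% in NPD lines. LPD line 40 set the upper end, while the lower ends, in LPD line 4 and NPD line 51, were alike. Without LPD line 40, 19 of the 29 were higher in LPD and the median fold change was 0.08. Without LPD line 4 and NPD line 15 together, the lines whose Ddx3y values stood apart, 23 were higher and the median was 0.19. There, 5 members had an unadjusted limma p under 0.05, with Cd63, Ctsd, Hexa and Asah1 higher and Mcoln1 lower. Of all 14354 genes tested without these lines, 50.5% were higher and 610 had an unadjusted limma p under 0.05.

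**Figure D5:**
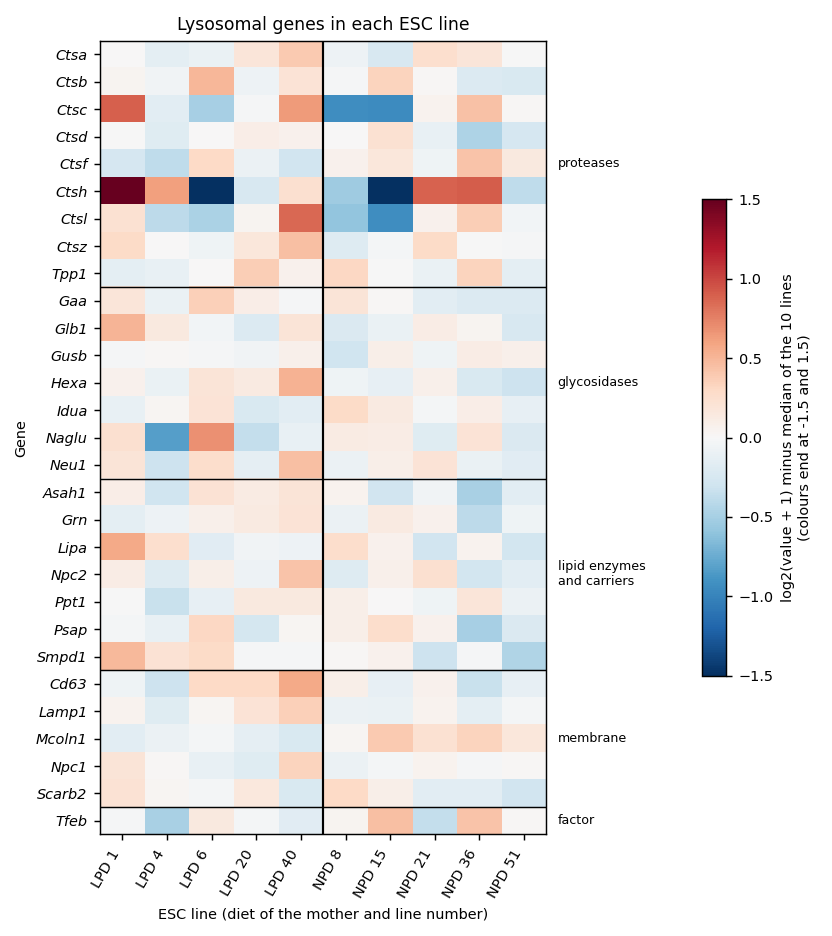
Heat map of the 29 lysosomal genes (rows, grouped by class) in the 10 ESC lines (columns, LPD left and NPD right), coloured by log2(value + 1) minus the median of the 10 lines, with darker colours farther from it. The strongest colours are in Ctsh, Ctsc, Ctsl and Naglu and cross the line between the diets, whereas Mcoln1 is blue to pale in LPD and red to pale in NPD.

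Other genes of the organelle, taken from lists that are not the members, had medians per list from -0.06 to 0.13, beside 0.12 for the members. Among all genes tested, 50.5% were higher in LPD. At an unadjusted limma p under 0.05, 2.84% of all genes tested were higher and 2.18% lower, the shares beside which the calls per list stand. Of 30 further hydrolases and cofactors tested (33 of 34 listed), 17 were higher and 13 lower in LPD with a median of 0.04, and 1 had an unadjusted p under 0.05, the serine carboxypeptidase gene Scpep1 at 0.21 (SE 0.09, limma p = 0.041, adjusted p = 0.982, exact permutation p = 0.0556). Of 21 further membrane proteins tested, 12 were higher and 9 lower with a median of 0.04, and 0 had an unadjusted p under 0.05 in limma. The proton pump that acidifies the lumen, the V-ATPase, had 16 of 18 subunits higher, 2 lower and 0 at an unadjusted p under 0.05, with a median of 0.13 and a range from -0.20 to 0.27. In the mannose 6-phosphate and sortilin route, 8 of 12 were higher and 4 lower, and 1 passed an unadjusted p of 0.05, the adaptor gene Gga3 at -0.26 (SE 0.11, limma p = 0.0435, adjusted p = 0.982, exact permutation p = 0.0714). Of the 7 Tfeb relatives and regulators, 2 were higher and 5 lower, with Mitf the 1 at an unadjusted p under 0.05. Of 17 autophagy genes, 12 were higher and 5 lower with a median of 0.08, and 1 passed. This was Map1lc3a, which coats autophagosomes, with values of 611, 608, 716, 669.9 and 761 in LPD lines 1, 4, 6, 20 and 40 and 573, 596, 589, 489.9 and 585 in NPD lines 8, 15, 21, 36 and 51. Every LPD line was above every NPD line, as in 0.523% of all genes tested. The fold change of Map1lc3a was 0.25 (SE 0.10, limma p = 0.0305, adjusted p = 0.952, exact permutation p = 0.00794). The unadjusted p stayed under 0.05 in 8 of 21 alternatives for Scpep1, 12 of 21 for Gga3 and 17 of 21 for Map1lc3a. In each of these lists limma called 0 genes at an adjusted p under 0.1.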

How the data were processed

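RNA was sequenced from 10 ESC lines, 5 per diet, each line being 1 replicate. Adaptors were trimmed with cutadapt, reads of low quality removed and transcripts quantified with Salmon on the GRCm38 transcripts of Ensembl, according to the study's methods. The authors deposited a normalized signal per gene and line for 20206 genes, an estimated count normalized, by the name of the table, with DESeq2. The summing of transcripts to genes is not given in the sources used here. Columns were mapped to lines by the sample number in the titles, with 0 columns left over.

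Of the low nonzero values in a line, 62.2% to 69.8% were whole multiples of 1 read, within a tolerance of 0.15 on either side, so no count model was used. The worth of 1 read was found from genes with 1 annotated transcript, where this share was 85.4% to 99.5%. That worth gave the read equivalents, the depth of each line, which limits the precision of low genes and covers counting error only. Values were transformed as log2(value + 1). A mean of 10 or more across the 10 lines was required, which 14354 genes met, and these were fitted with lmFit and eBayes with trend (limma 3.58.1, R 4.3.3) without covariates, with Benjamini-Hochberg adjustment over all of them and a threshold of 0.1. The test was tried on simulated data first. Fold changes on this scale understate those of low genes. For named genes an exact permutation test over all assignments of the lines was added, and correlations with 100000 permutations. Levels per kb used the lowest-numbered principal transcript of GENCODE M21. Promoters are RefSeq windows of GRCm38.p6. Python 3.11.15 was used otherwise.

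The members and lists were chosen with earlier results of these data known. Every line is given for members at an unadjusted p under 0.05, for Gaa, Lamp1 and Tfeb, for the 3 highest and 3 lowest per kb and for the 4 most variable. Asah1, Smpd1 and Ctsf were added after their values were seen. Of the other lists, genes at an unadjusted p under 0.05, Tfe3 and Mitf are named, and Lgmn was added after its values were seen. Alternatives were pseudocounts of 0.1 and 10, no filter or a minimum mean of 100, quantile normalization, rescaling to equal totals, limma without trend, with array weights or with robust eBayes, each line left out in turn, and LPD line 4 and NPD line 15 left out together. Depth as a covariate, and all alternatives for genes outside the members, were chosen after seeing the data.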

Additional observations from a re-analysis of the deposited data

Results flagged for a closer look

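In Asah1, the acid ceramidase gene, LPD line 4 had a value of 2805 while the other 4 LPD lines had 3685 to 4002. On the scale of log2(value + 1), the gap to the nearest line was 0.767 of the range of the group, above Dixon's critical value of 0.710 for 5 samples. This was 1 of 58 groups looked at (29 genes in 2 diets), and chance passes about 1 group in 20. LPD line 4 also had the lowest depth and a low Ddx3y value, whose part in the Asah1 value was not tested.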

How the results depend on the processing

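Over 21 alternatives, 19 to 24 of the 29 lysosomal genes were higher in LPD, their median log2 fold change stayed between 0.08 and 0.19, and 0 passed an adjusted p of 0.1 in limma. The number at an unadjusted p under 0.05, 2 with all lines, ran from 1 to 5 when single lines were left out, with 5 without LPD line 4, 4 without LPD line 20 or NPD line 8, and 1 without NPD line 36 or 51. It was 5 without LPD line 4 and NPD line 15 together. Of all 14354 genes tested, 721 were under that threshold with all lines and 549 to 903 with single lines left out. Without LPD line 4 and NPD line 15 together, 610 were. Of 608 values of single members, 565 kept their direction and side of the threshold, 3 lost it, 17 passed it and 23 changed sign, and 21 genes never changed sign. Gusb fell to -0.02 (-0.0169) when lines were rescaled to the same total and to -0.0050 with depth as a covariate, and Ctsa was -0.0064 with array weights. With depth as a covariate Naglu was 0.13, Tpp1 0.0397 and Ppt1 0.0727. Without LPD line 4 and NPD line 15, Ctsh was -0.34, Naglu 0.13 and Ppt1 0.012. With each line left out, ranges were -0.0069 to 0.12 for Npc1, -0.0354 to 0.10 for Ctsa, -0.0519 to 0.0494 for Gusb, -0.13 to 0.0186 for Tpp1, -0.10 to 0.0164 for Ppt1, -0.19 to 0.88 for Ctsh, -0.0598 to 0.13 for Psap and -0.27 to 0.10 for Naglu. Outside the members, Tfe3 ran from -0.20 to 0.11 and was 0.093 without LPD line 4 and NPD line 15. Values that 1 line moved by over 1.5 times included Npc2 at 0.047 without LPD line 40, Ctsb at 0.0486 without LPD line 6, Ctsz at 0.0915 without LPD line 40, Lipa at 0.0236 without LPD line 1, and Ctsd at 0.0334 and Grn at 0.0252 without NPD line 36. Naglu gave no value at a mean of at least 100. Apart from these constructions, the cause was not tested. Rescaling moved the share of higher genes among all genes tested from 50.5% to 42.2%, and quantile normalization to 47.3%. In these 2 settings 21 and 22 members were higher, and the median of the members fell from 0.12 to 0.085 and 0.087. Among all genes at an unadjusted limma p under 0.05, the share of higher genes moved from 56.6% to 40.2% and 51.1%. No paired analysis was possible because the groups share no line numbers. Depth limits low members most in LPD lines 4, 6 and 40.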
